A study of Homo sapiens with 6 samples.

Results

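ARRDC4 and TXNIP, a pair of alpha-arrestins controlled by the glucose sensor MondoA, were examined together with 3 further alpha-arrestins (ARRDC1, ARRDC2 and ARRDC3) and with MondoA itself (gene name MLXIP), its dimer partner MLX and its relative ChREBP (gene name MLXIPL). The 8 genes were picked by name from the 58735 genes of the deposited table. They were chosen from earlier results on the same libraries, since ARRDC4 was known to be among the strongest falls, so the difference between conditions is given for the 8 members as a description, without a p-value. All 8 members passed the filter on low values (10 counts or more in 3 or more libraries), as did 15801 genes in all.

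LoVo cells, an established line from a human colorectal cancer, were transfected either with a negative control siRNA (si-NC, 3 libraries) or with an siRNA against the splicing factor SRSF11 (si-SRSF11, 3 libraries). Paired-end RNA sequencing was done, and read counts per gene were deposited. The knockdown was transient and was made in 1 cell line, and which of the study's SRSF11 siRNAs was sequenced is not given in the sources used here. The study names DMEM or an RPMI medium for a set of lines that includes LoVo, and the glucose supply of these cells is not given in the sources used here.

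MondoA shuttles between the cytoplasm and the nucleus. When glucose 6-phosphate rises, MondoA and MLX bind together to carbohydrate response elements, which are a pair of E-box-like motifs held apart by a fixed spacer, and transcription of TXNIP and ARRDC4 goes up. ChREBP does the same chiefly in liver, fat and gut. TXNIP, thioredoxin-interacting protein, binds reduced thioredoxin and helps to draw glucose transporters from the cell surface, so the pathway works as a brake on glucose uptake. Alpha-arrestins commonly carry short motifs that bind WW domains and bring NEDD4-family ubiquitin ligases to membrane proteins.

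The start regions of ARRDC4 and TXNIP are shown because these genes are the textbook targets of MondoA and MLX. They come from RefSeq (build GRCh38.p14) and hold 250 bases before and 50 bases after the annotated start, written 5′ to 3′ on the strand of the gene. Capitals mark relaxed E-boxes (CACGNG), the full carbohydrate response element (CACGNG, then 5 bases of any kind, then CNCGNG) and CCAAT boxes (CCAAT), searched on both strands, where N is any base. The strict E-box CACGTG is one form of the relaxed E-box, and the full element begins with a relaxed E-box. ARRDC4 lies on the plus strand (chr15:97960453-97960752) and TXNIP on the minus strand (chr1:145996530-145996829).
ARRDC4: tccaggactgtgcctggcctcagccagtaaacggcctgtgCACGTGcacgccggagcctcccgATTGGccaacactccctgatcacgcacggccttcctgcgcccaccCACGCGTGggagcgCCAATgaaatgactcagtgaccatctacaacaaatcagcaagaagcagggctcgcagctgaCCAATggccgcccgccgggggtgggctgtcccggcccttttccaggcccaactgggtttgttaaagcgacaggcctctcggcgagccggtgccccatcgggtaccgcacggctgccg
TXNIP: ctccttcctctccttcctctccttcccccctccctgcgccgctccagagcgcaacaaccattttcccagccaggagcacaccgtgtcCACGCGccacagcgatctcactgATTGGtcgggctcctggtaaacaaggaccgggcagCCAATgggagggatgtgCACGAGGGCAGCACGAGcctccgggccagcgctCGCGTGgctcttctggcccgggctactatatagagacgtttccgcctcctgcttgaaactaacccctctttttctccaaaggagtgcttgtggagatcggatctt

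TXNIP held 1 match to the full element, starting 88 bases before the start site, and it read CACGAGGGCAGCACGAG. Of 35116 start regions of the same length, 176 held such a match (0.501%). The ARRDC4 region held none, which says only that these letters are not in this window. It held the strict E-box CACGTG once, 210 bases before the start site, as 7.26% of all start regions did at least once. All start regions include those of genes not expressed here, and some genes have several, so these shares are not those of expressed genes. Counted by gene rather than by region, 1327 of 10593 other tested genes with a start region held the strict E-box. MLX was the other member with this E-box, 50 bases before its start site.

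TXNIP had 4 relaxed E-boxes, a pair of which lie inside the full element, and 0.524% of all start regions had 4 or more. ARRDC4 had 3, of which one is the strict E-box and the other 2 overlap each other. ARRDC2 also had 3, and 1.98% of all regions had 3 or more. ARRDC4 had 3 CCAAT boxes, the sequence bound by NF-Y, and TXNIP had 2. The shares of all regions with at least as many were 3.26% and 10.8%. For ARRDC1, ARRDC2, ARRDC3, MLXIP and MLX, 1 CCAAT box was found for each, and none of these letters was found for MLXIPL. The CCAAT box of ARRDC2 lay in another start region than its relaxed E-boxes. ARRDC3 had 1 relaxed E-box, also in another start region than its CCAAT box. RefSeq start regions were matched for 8 of 8 members, with 11 regions in all.

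**Figure D1:**
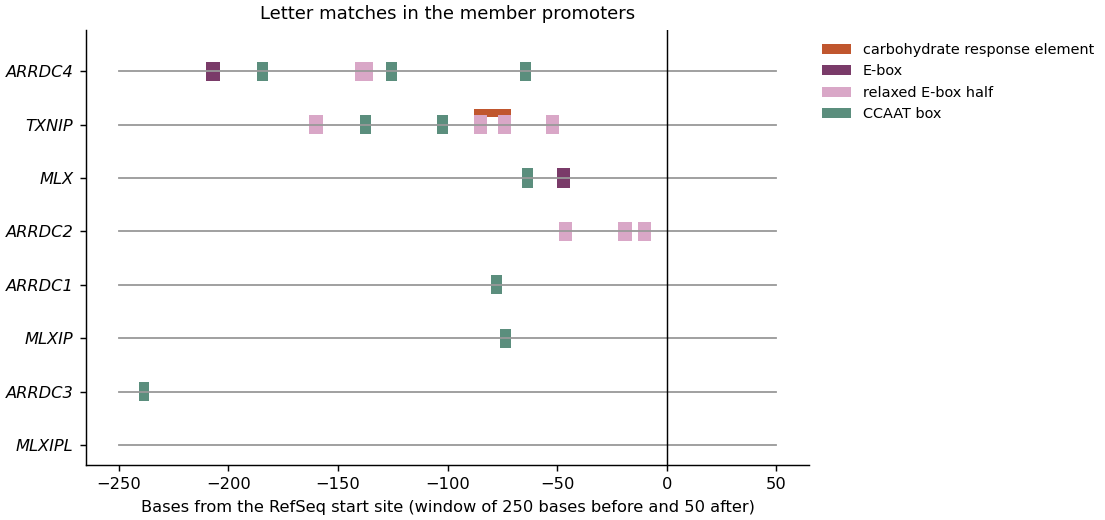
Positions of the letter matches in 1 RefSeq start region for each member, in bases from the start site, namely the start region with the most matches, with the full carbohydrate response element drawn above the line. The full element appears in TXNIP alone, and ARRDC4 has the largest number of CCAAT boxes, 3.

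Library totals ran from 14369525 to 15514404 counts in si-NC and from 15688702 to 16685719 in si-SRSF11, so each si-SRSF11 library was deeper. SRSF11, the targeted gene, was lower in each library labelled si-SRSF11 (48.6 to 50.5 CPM, counts scaled for library size, against 84.3 to 87.6), at a log2 fold change of -0.81 (SE 0.054, edgeR adjusted p = 6.1e-10). Of 10 colorectal epithelial markers, 8 were above 1 CPM in each library, and KRT20 and CEACAM5 were not. The 5 leukocyte markers summed to 3.29 to 4.04 CPM in si-NC and 3.77 to 4.54 in si-SRSF11, with 1 of them above 1 CPM in each library and PTPRC without a count. The 3 endothelial markers summed to 1.48 to 2.57 and 0.797 to 2.05 CPM, and the 3 hepatocyte markers to 2.31 to 2.97 and 3.13 to 4.85 CPM, the latter with 1 marker above 1 CPM in each library. The fibroblast marker DCN had no count. The summed fibroblast markers, of which COL1A1 and PDGFRB carried the signal, stood at 19.7 to 23.2 CPM in si-NC and 24.7 to 28.9 in si-SRSF11. Mitochondrial genes took 7.0% to 7.25% of the counts in si-NC and 8.29% to 8.51% in si-SRSF11. The part of depth, fibroblast and hepatocyte markers and mitochondrial reads in the differences described here was not tested.

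Of all 15801 genes, 24.6% had an adjusted p under 0.05, with 2081 higher and 1805 lower in si-SRSF11. Scaling by library size alone turned the majority, to 1585 higher and 2289 lower. Among the members, 3 of 8 were on the lower side of this threshold (ARRDC4, TXNIP and ARRDC1) and none on the higher side. The share of all genes called lower was 11.4%. Since the same contrast chose ARRDC4, nothing is read from this count. ARRDC4 was the 1 member whose log2 fold change also exceeded 1 in size, as 1.09% of all genes did with an adjusted p under 0.05. The conditions did not overlap for ARRDC4, TXNIP, ARRDC1 and MLX, beside 38.8% of all genes.

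ARRDC4 encodes an alpha-arrestin that acts on glucose uptake and on the sorting of membrane receptors. The gene (ENSG00000140450) lies on chromosome 15 of GRCh38 from 97960698 to 97973838 on the plus strand, with 1 annotated transcript, and shares no exon base with another gene. Replicates 1, 2 and 3 of si-NC gave 8789, 9150 and 9471 counts, and those of si-SRSF11 gave 4615, 4593 and 4981. After scaling, the si-NC libraries stood at 606.0, 602.0 and 608.0 CPM and the si-SRSF11 libraries at 295.1, 282.6 and 305.5 CPM. The highest si-SRSF11 library thus stayed far below the lowest si-NC library, and the spread within each condition was small, with means of 605.4 ± 3.04 and 294.4 ± 11.5 CPM (SD, n = 3 each).

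The log2 fold change of ARRDC4 was -1.04 (standard error, SE, 0.046), which left 48.6% of the si-NC level. In bulk RNA, fewer cells that express a gene and less RNA per cell cannot be told apart. By fold change ARRDC4 was the 105th of 15801 tested genes and the 36th of 12770 protein-coding genes from the bottom. Among the 258 genes with at least as many counts, it had the lowest value. ARRDC4 was chosen as a strong fall, so these ranks are only a description. In absolute terms it lost 311 CPM, the 11th largest loss of all tested genes.

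TXNIP (ENSG00000265972) lies on chromosome 1 from 145992435 to 145996600 on the minus strand, has 4 annotated transcripts and shares no exon base with another gene. It had 8825, 9239 and 9640 counts in the si-NC libraries and 6402, 6566 and 6824 in the si-SRSF11 libraries. These are 608.5, 607.9 and 618.8 CPM against 409.4, 404.0 and 418.5 CPM. All si-SRSF11 values lay below all si-NC values, as for ARRDC4, but the gap was narrower. The log2 fold change was -0.58 (SE 0.044), which left 67.1% of the si-NC level of 611.8 ± 6.14 CPM (SD, n = 3). By fold change TXNIP was the 717th of 15801 tested genes from the bottom.

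Total counts on both genes were nearly equal in the control, and they were not after knockdown. The ratio of ARRDC4 to TXNIP counts inside a library needs no scaling between libraries. It was 0.996, 0.990 and 0.983 in si-NC replicates 1, 2 and 3, and 0.721, 0.700 and 0.730 in si-SRSF11 replicates 1, 2 and 3. The ratio was lower in each si-SRSF11 library, so ARRDC4 lost a larger part of its counts than TXNIP did.

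**Figure D2:**
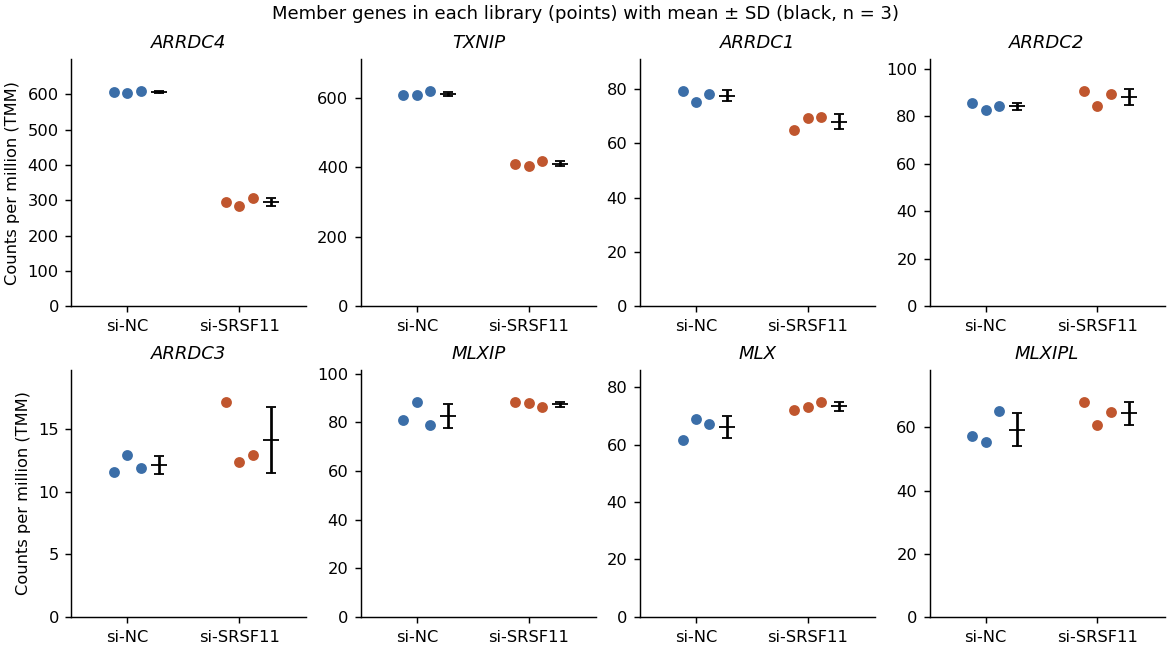
CPM (TMM scaled) of the 8 members in each library, with the mean and SD (n = 3) of each condition in black, each panel with its own axis from 0. ARRDC4 drops from about 605.4 to 294.4 CPM and TXNIP from 611.8 to 410.6, while for ARRDC2, ARRDC3, MLXIP and MLXIPL the conditions overlap.

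The other alpha-arrestins had smaller differences than ARRDC4. ARRDC1 (chr9:137605654-137615360, plus strand), which recruits ESCRT proteins and buds vesicles from the plasma membrane, had 79.2, 75.4 and 78.3 CPM in si-NC and 64.8, 69.5 and 69.7 CPM in si-SRSF11. The conditions did not overlap, and the log2 fold change was -0.19 (SE 0.054). Without si-NC replicate 1 it was -0.18 and no longer past the threshold. ARRDC1 shares 29 exon bases with its antisense gene ARRDC1-AS1, and 5.55% of its exon bases with other genes in all. ARRDC1-AS1 itself had a log2 fold change of -0.22 (SE 0.098, edgeR adjusted p = 0.10). Whether counting was stranded is not given in the sources used here, so reads in shared bases cannot be assigned to either gene.

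ARRDC2 (chr19:18001132-18014102, plus strand) had 85.7, 82.7 and 84.6 CPM in si-NC and 90.6, 84.3 and 89.6 CPM in si-SRSF11, and the conditions overlapped. The log2 fold change was 0.06 (SE 0.052). ARRDC3 (chr5:91368724-91383359, minus strand), an adaptor in the degradation of the beta-2 adrenergic receptor and of integrin beta-4, was the lowest member, with 168 to 269 counts per library. It had 11.6, 13.0 and 11.9 CPM in si-NC and 17.2, 12.4 and 12.9 CPM in si-SRSF11. Only si-SRSF11 replicate 1 stood above the others. The log2 fold change of 0.22 (SE 0.12) became 0.05 without that library. The neighbouring ARRDC3-AS1 had 14 to 22 counts per library and shares 145 exon bases with ARRDC3.

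ARRDC5, the last alpha-arrestin, did not pass the filter, with 0 to 4 counts per library. Of the beta-arrestins, which silence G protein-coupled receptors, ARRB1 rose from 58.2 ± 2.39 to 75.5 ± 7.14 CPM (SD, n = 3), at a log2 fold change of 0.37 (SE 0.065, edgeR adjusted p = 2.0e-04). ARRB2 had 74.1 ± 2.31 and 76.6 ± 4.45 CPM (SD, n = 3) and did not pass (adjusted p = 0.58, same edgeR test).

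The 3 regulator genes stood at 105.7% to 111.0% of their control level. MLXIP (chr12:122078722-122147347, plus strand), which encodes MondoA, had 81.0, 88.4 and 78.9 CPM in si-NC and 88.3, 87.9 and 86.4 CPM in si-SRSF11. The conditions overlapped, and the log2 fold change was 0.08 (SE 0.054). In percent, the si-SRSF11 level was 105.7% of si-NC. MLXIP is the largest member by exon bases (13905) and shares none of them with other genes.

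MLX (chr17:42567068-42573239, plus strand), the partner that MondoA and ChREBP need to bind DNA, had 61.7, 69.02 and 67.2 CPM in si-NC and 71.9, 73.0 and 74.8 CPM in si-SRSF11. Each si-SRSF11 library was above each si-NC library, and the log2 fold change was 0.15 (SE 0.057), which did not pass the threshold. MLX passed only when the replicate number was added as a block, at 0.15. MLX shares 18.1% of its exon bases with PSMC3IP, a recombination factor gene on the opposite strand. PSMC3IP had 209 to 227 counts in si-NC and 143 to 214 in si-SRSF11, at a log2 fold change of -0.37 (SE 0.12, edgeR adjusted p = 0.031). PSMC3IP lost its call without si-NC replicate 1 (-0.32), si-NC replicate 3 (-0.37) or si-SRSF11 replicate 1 (-0.24).

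MLXIPL (chr7:73593194-73624543, minus strand), which encodes ChREBP, was expressed in LoVo cells at 57.2, 55.5 and 65.3 CPM in si-NC and 68.1, 60.8 and 64.8 CPM in si-SRSF11. The conditions overlapped, at a log2 fold change of 0.12 (SE 0.065). None of the 3 regulator genes passed the threshold, which does not show that they were unchanged. Per length MLXIP had 17.9 TPM in both conditions. These values are RNA levels. Where MondoA sat in the cell and whether it was bound at its targets was not measured in these libraries.

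Levels can be compared between genes only per length, taken here as all annotated exon bases of a gene. For a gene with several transcripts this can exceed the length of any single RNA, which lowers its value. In si-NC, the order in per-length level (TPM, counts per exon base scaled to the same total in each library) was TXNIP with 507.6 ± 4.67, ARRDC4 with 447.1 ± 3.93, ARRDC1 with 61.1 ± 1.83, ARRDC2 with 54.7 ± 1.28, MLX with 46.6 ± 2.44, MLXIPL with 37.1 ± 3.19, MLXIP with 17.9 ± 1.050 and ARRDC3 with 7.40 ± 0.412 TPM (SD, n = 3 each). No pair of neighbours in this order overlapped over the 3 libraries. TXNIP took place 208 and ARRDC4 place 237 among the 15801 tested genes in the per-length level, whereas MLXIP took place 6729. On this scale the 2 target genes were thus among the most abundant RNAs of these cells and their regulator was not.

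In si-SRSF11 the order per length differed at 1 position. TXNIP stood at 321.5 ± 6.49 TPM and ARRDC4 at 205.2 ± 7.70 TPM (SD, n = 3 each), still the highest. ARRDC2 (54.0 ± 2.70 TPM) came before ARRDC1 (50.5 ± 1.096 TPM), and the libraries of these neighbours overlapped. For MLX, the conditions overlapped on this scale (43.9 to 48.6 TPM in si-NC and 48.5 to 49.1 TPM in si-SRSF11), although they did not in CPM. Relative to si-NC, each member stood somewhat lower in si-SRSF11 in TPM than in CPM. ARRDC2 had means of 54.7 TPM in si-NC and 54.0 TPM in si-SRSF11, although its log2 fold change was 0.06. MLXIPL RNA exceeded MLXIP RNA per length in each library, by 1.81 to 2.39 times in si-NC and 2.00 to 2.23 times in si-SRSF11. In counts the order was the reverse, with MLXIPL to MLXIP ratios of 0.63 to 0.83 in si-NC and 0.69 to 0.77 in si-SRSF11. The order thus depends on the lengths used, 13905 bases for MLXIP and 4815 for MLXIPL.

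Summed over the 5 alpha-arrestins, the per-length level was 1085, 1066 and 1082 TPM in the si-NC libraries and 655.2, 621.8 and 641.1 TPM in the si-SRSF11 libraries. ARRDC4 made up 41.3% to 41.6% of this sum in si-NC and 31.6% to 32.5% in si-SRSF11. The share of TXNIP went from between 46.9% and 47.3% to between 50.1% and 50.7%, although its level was lower, because ARRDC4 lost more. ARRDC1, ARRDC2 and ARRDC3 together remained the minor part in each library.

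**Figure D3:**
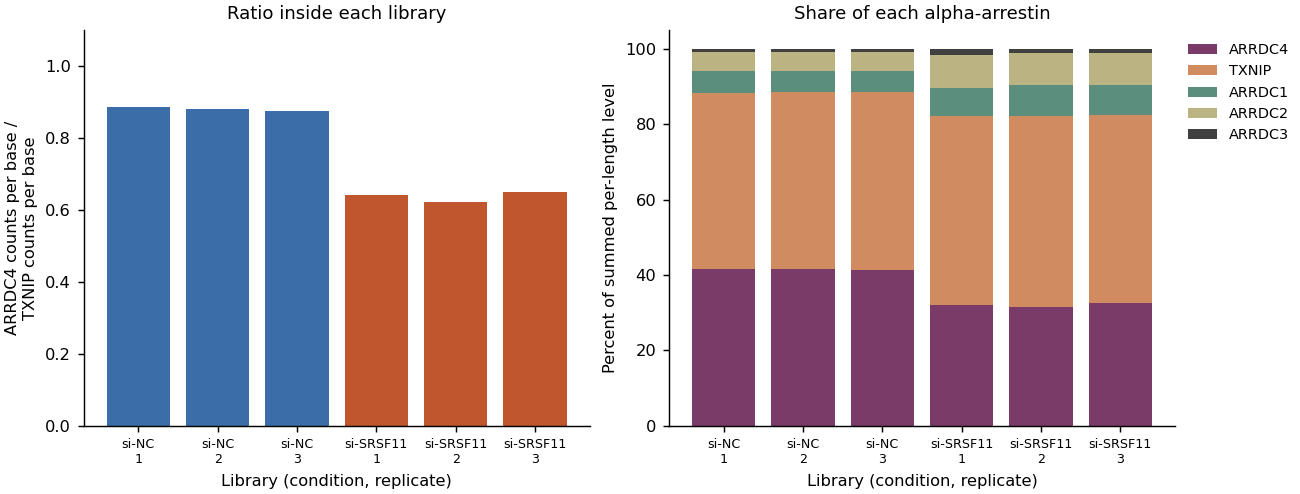
Left, the ratio of ARRDC4 to TXNIP counts per base in each library, near 0.881 in si-NC and 0.638 in si-SRSF11. Right, the percent of each of 5 alpha-arrestins in their summed per-length level, where the ARRDC4 share is 41.5% on average in si-NC and 32.1% in si-SRSF11.

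Other genes reported as targets of MondoA or ChREBP in other cells moved in both directions. Of 24 genes on this list, 17 were tested, of which 4 were higher and 2 lower (35.3%, beside 24.6% of all tested genes), with a median log2 fold change of 0.05 against 0.002 over all genes. The lower genes were BHLHE40, a transcriptional repressor of the clock and hypoxia responses, from 42.7 ± 2.73 to 27.3 ± 1.22 CPM (SD, n = 3), and KLF10, a zinc finger repressor, from 306.4 ± 4.91 to 243.8 ± 3.31 CPM (SD, n = 3). Their log2 fold changes were -0.65 (SE 0.072, edgeR adjusted p = 8.5e-07) and -0.33 (SE 0.045, edgeR adjusted p = 1.2e-05) in edgeR's quasi-likelihood test.

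The 4 higher genes of this list were SCD, ACLY, FASN and ACACA. SCD, the stearoyl-CoA desaturase, rose by a log2 fold change of 0.32, ACLY, which makes cytosolic acetyl-CoA, by 0.27, FASN, the fatty acid synthase, by 0.26, and ACACA, acetyl-CoA carboxylase, by 0.24. These enzyme genes are also textbook targets of the SREBP factors. ELOVL6, a fatty acid elongase gene of the same list, had -0.01 and was not past the threshold. PKLR, G6PC, GCKR, SLC2A2, MTTP and TM6SF2, which belong to liver programmes, did not pass the filter. HK2, the inducible hexokinase, had 191.7 ± 3.87 and 177.6 ± 5.42 CPM (SD, n = 3) and a log2 fold change of -0.11 that did not pass (edgeR adjusted p = 0.090), except with scaling by library size alone, where it was -0.145.

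Genes of glucose uptake and of the first steps of glucose use were tested in 14 of 19 cases, and 3 were higher and 2 lower (35.7%, beside 24.6% of all tested genes), with a median log2 fold change of 0.01. SLC2A1, the basal glucose transporter GLUT1 and a cargo that TXNIP helps to internalise, rose from 1075 ± 25.9 to 1386 ± 5.26 CPM (SD, n = 3), at a log2 fold change of 0.37 (SE 0.041, edgeR adjusted p = 8.2e-07). SLC2A3, the high-affinity transporter GLUT3, fell from 173.7 ± 7.10 to 144.0 ± 7.24 CPM (SD, n = 3), at a log2 fold change of -0.27 (SE 0.051, edgeR adjusted p = 4.3e-04). The other calls were HK1, the housekeeping hexokinase, with 0.25, SLC2A6 with 0.34 and SLC2A8 with -0.30. SLC2A6 lost its call without si-NC replicate 2 (0.29). GPI, which makes fructose 6-phosphate, was not past the threshold, at 0.07 on the log2 scale.

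In the thioredoxin system, to which TXNIP binds, 13 of 13 genes were tested, with 2 higher and 3 lower (38.5%, beside 24.6% of all tested genes) and a median log2 fold change of 0.07. TXN, the thioredoxin that TXNIP binds, had 203.8 ± 4.93 and 222.6 ± 22.8 CPM (SD, n = 3) and did not pass (log2 fold change 0.13, edgeR adjusted p = 0.12), although without si-SRSF11 replicate 2 it passed at 0.20. Without si-SRSF11 replicate 3 it was 0.05. TXNRD1, the reductase that recharges thioredoxin, fell from 1116 ± 18.9 to 802.9 ± 13.1 CPM (SD, n = 3), at a log2 fold change of -0.47 (SE 0.042, edgeR adjusted p = 2.8e-08). SRXN1, which repairs overoxidised peroxiredoxins, fell from 30.9 ± 1.93 to 15.5 ± 1.13 CPM (SD, n = 3), at a log2 fold change of -0.998. The mitochondrial reductase TXNRD2 fell by 0.27 on the log2 scale and lost its call without si-NC replicate 3 (-0.20). The peroxiredoxin genes PRDX4 (0.50) and PRDX1 (0.36) rose.

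In the network of MYC, MAX and MXD proteins to which MLX belongs, 9 of 10 genes were tested, with 3 higher and 3 lower (66.7%, beside 24.6% of all tested genes) and a median log2 fold change of -0.16. MXD1, MXI1 and MXD4 encode repressor partners of MAX or MLX, and they did not move alike. MXD4 rose from 50.1 ± 5.34 to 67.7 ± 3.21 CPM (SD, n = 3), at a log2 fold change of 0.44 (SE 0.069, edgeR adjusted p = 6.8e-05). MXI1 fell by 0.20 and MXD3 by 0.45 on the log2 scale. MXD1 had -0.26 and lost its call without si-NC replicate 1 (-0.24), si-NC replicate 2 (-0.22) or si-SRSF11 replicate 3 (-0.22). MGA rose by 0.40 and MYC by 0.21 on the log2 scale. MAX, the shared partner, had 0.09 and did not pass, and neither did MNT, which can pair with MLX, with -0.16.

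Of the NEDD4-family ligases that alpha-arrestins recruit, all 9 were tested, with 2 lower and none higher (22.2%, beside 24.6% of all tested genes), with a median log2 fold change of -0.16. NEDD4L fell from 99.6 ± 1.46 to 84.7 ± 3.68 CPM (SD, n = 3), at a log2 fold change of -0.23 (SE 0.051, edgeR adjusted p = 0.0017). ITCH, a ligase that ubiquitinates TXNIP, had -0.18 and lost its call without si-NC replicate 1 (-0.145), which left 1 ligase called. NEDD4 had -0.20 and did not pass, but it passed without si-NC replicate 3 (-0.27) or without si-SRSF11 replicate 1 (-0.30), with 3 ligases called in each case. WWP1 had a log2 fold change of 0.02, whose sign was not stable. The largest value on this list was that of HECW2, at -1.02 (SE 0.40, edgeR adjusted p = 0.064), which did not pass. It had only 12 to 18 counts per library in si-NC and 8 to 9 in si-SRSF11.

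Of the genes listed for the AMPK and mTOR pathways, 12 of 14 were tested, with 1 higher and 3 lower (33.3%, beside 24.6% of all tested genes) and a median log2 fold change of 0.01. DDIT4, a stress-induced inhibitor of mTORC1, fell from 720.3 ± 22.4 to 548.3 ± 28.99 CPM (SD, n = 3), at a log2 fold change of -0.39 (SE 0.047, edgeR adjusted p = 2.3e-06). PRKAB2, an AMPK subunit, fell by 0.33 and STK11, the kinase LKB1 upstream of AMPK, by 0.29 on the log2 scale. The catalytic subunit gene PRKAA1 had 0.09 and MTOR had -0.03, and neither passed. DEPTOR, an mTOR-binding inhibitor, had 0.39 and lost its call without si-NC replicate 1 (0.37), si-NC replicate 3 (0.35) or si-SRSF11 replicate 2 (0.25).

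**Figure D4:**
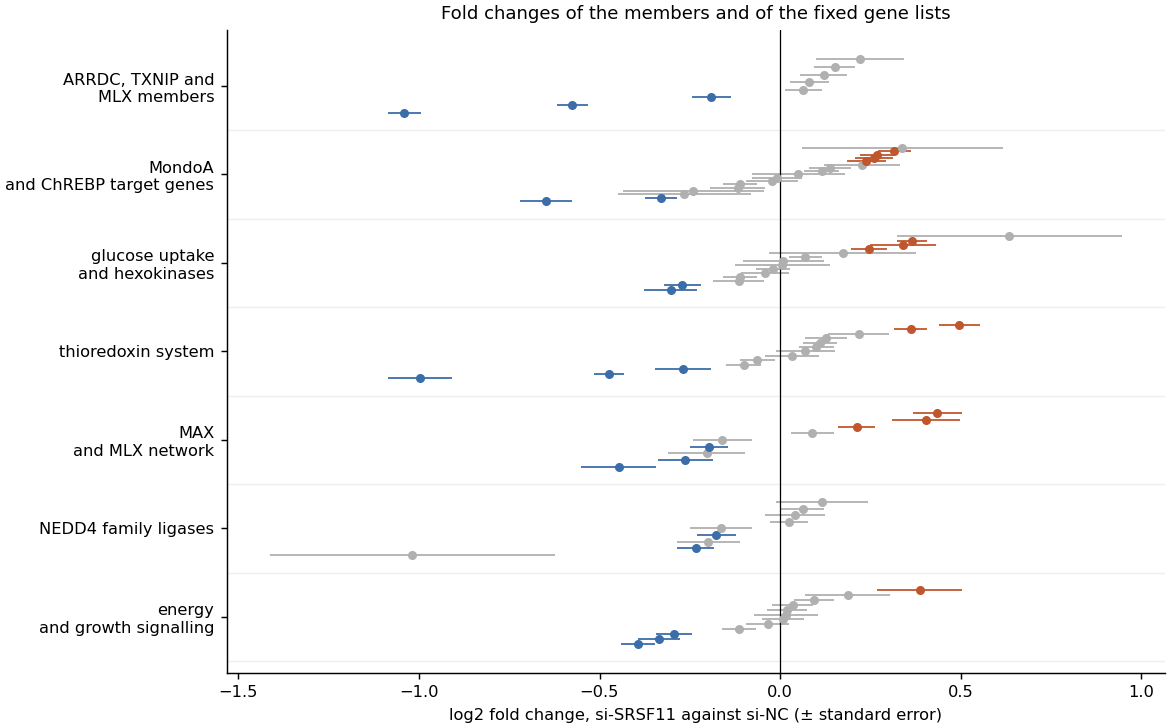
Log2 fold change with its standard error (edgeR) of the tested genes of each list, where orange is higher and blue lower in si-SRSF11 at an adjusted p under 0.05 and grey is not past it. ARRDC4 at -1.04 and TXNIP at -0.58 lie at the left of the top row, and no list of related genes lies wholly on one side of 0.

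Among 10593 other tested genes with a RefSeq start region, 104 held the full element that TXNIP carries. Of these, 20 were higher and 16 lower in si-SRSF11 (34.6% called), with a median log2 fold change of 0.06. Of the 10489 genes without it, 26.7% were called and the median was 0.01. Genes with the strict E-box had a median of 0.03 (1327 genes) and those with a CCAAT box 0.01 (4495 genes). The share called lower was 15.4% with the element and 12.1% without it, and the share called higher 19.2% and 14.6%. On the gene lists above, 1 gene held the full element, the repressor gene MXI1.

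The profiles nearest to ARRDC4 were sought over 10930 protein-coding genes whose mean log2 CPM was 2 or higher, by the root mean square difference of log2 CPM over the 6 libraries after centring on the si-NC mean. The nearest was OSGIN1, an oxidative stress response gene, at a distance of 0.078, with a log2 fold change of -0.95. Then came VGF, a precursor of secreted neuropeptides, with -0.91, SRXN1 with -0.998, LMNTD2 with -0.95 and DBP, a clock output transcription factor, with -0.91. Of these, VGF was at a level like that of ARRDC4, with 819.9 CPM in si-NC and 436.9 CPM in si-SRSF11. The profiles nearest to TXNIP were those of C1orf43 (-0.58), DUSP5, a phosphatase of ERK (-0.61), PPP2R5B, a PP2A subunit (-0.55), the kinase gene PIM1 (-0.55) and GOT1, the cytosolic aspartate aminotransferase (-0.56), at distances of 0.027 to 0.033. Because profiles were centred on si-NC and replicates lay close together, this distance follows mainly the log2 fold change. TXNIP (-0.58) and ARRDC4 (-1.04) are therefore not in each other's lists, and nothing on shared control is read from this.

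The nearest tested protein-coding genes beside ARRDC4 are NR2F2, an orphan nuclear receptor gene 1620434 bases away, and IGF1R, the insulin-like growth factor receptor gene 674700 bases away. NR2F2 rose from 73.8 ± 0.577 to 93.6 ± 1.45 CPM (SD, n = 3), at a log2 fold change of 0.34 (SE 0.050, edgeR adjusted p = 2.7e-05). IGF1R had 0.28 (SE 0.092, edgeR adjusted p = 0.028), with libraries that overlapped between conditions. IGF1R lost its call with DESeq2 (0.28), with scaling by library size alone (0.25) and without any one of si-NC replicates 2 and 3 and si-SRSF11 replicates 1 and 2 (0.21 to 0.29). Beside TXNIP, POLR3GL, an RNA polymerase III subunit gene 13586 bases away, had -0.20 (adjusted p = 0.33) and NBPF10, 68098 bases away, had 0.33 (adjusted p = 0.21), neither past the threshold of the edgeR test. The value of POLR3GL was -0.05 without si-NC replicate 1 and -0.33 without si-NC replicate 3. NBPF10 belongs to a family of near-identical copies, so its counts are uncertain.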

How the data were processed

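RNA-seq of 3 si-NC and 3 si-SRSF11 LoVo libraries was used, grouped by the deposited labels. The authors deposited raw read counts per gene in 1 table for the 6 libraries, on hg38 per the labels. The aligner and counting program are not given in the sources used here. Start, end and exon length of each member in the table equal those of GENCODE 29, which was used for exon overlaps. Genes reaching 10 counts in 3 or more libraries entered the analysis. Libraries were scaled by TMM and conditions were compared with edgeR (version 4.0.16, R 4.3.3) by glmQLFit and glmQLFTest on condition, with Benjamini-Hochberg adjustment over 15801 genes. The standard error came from the quasi-likelihood F statistic. CPM used the TMM-scaled library sizes, and log2 CPM a prior count of 2. The fit was tested on simulated data. DESeq2 (version 1.42.0), limma-voom (limma version 3.58.1), other scalings and filters, a replicate block and the removal of single libraries were the alternatives.

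The members and gene lists were chosen with earlier results of these data known. The text names the members, SRSF11, at most 6 called genes per list and the direct partners of members, overlapping and flanking genes, and the 5 nearest profiles. Other names (list genes not called, such as GPI, MNT, PRKAA1 and MTOR, those below the filter, and markers) were chosen after the values were seen. Replicates differed by more than counting error, with a chi-square per degree of freedom of 2.08 to 5.42 within a condition. The study describes pairs of independent RNA samples. Neither it nor the labels say whether libraries came from separate cultures, so p-values measure only the spread between these libraries, which may be technical. Library totals of 14369525 to 16685719 counts set the precision, and reads carry no molecular identifiers. Splicing of the members was not analysed here, since the table has 1 value per gene and library.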

Additional observations from a re-analysis of the deposited data

How the results depend on the processing

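All 8 members kept the sign of their log2 fold change in the 13 alternatives, none of which used TPM. It ranged from -1.08 to -1.01 for ARRDC4, from -0.61 to -0.56 for TXNIP, from -0.23 to -0.16 for ARRDC1, from 0.03 to 0.10 for ARRDC2, from 0.05 to 0.31 for ARRDC3, from 0.05 to 0.13 for MLXIP, from 0.11 to 0.18 for MLX and from 0.07 to 0.20 for MLXIPL. The number of genes called was 3060 with DESeq2 and 2741 to 3871 with 1 library left out. With 1 library left out, 2 to 3 members and 1 to 3 NEDD4-family ligases were called. The other gene lists kept their counts of calls within 1.5 times in each alternative. For the 60 genes tracked singly, 753 of 780 comparisons kept both direction and side of the threshold, 19 lost and 5 gained a call. The remaining 3 turned the sign of WWP1, whose value was -0.010 with scaling by library size, -0.008 without si-NC replicate 3 and -0.020 without si-SRSF11 replicate 1 (range -0.020 to 0.059 with 1 library left out). The cause was not tested.

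The study speaks of pairs of samples, and the replicate numbers were shared between conditions. Same-numbered libraries did not deviate together (correlations of deviations 0.015, 0.036 and 0.040), so they were not treated as pairs in the main fit. With the replicate number as a block, 4036 genes and 4 members were called, the additional member being MLX. ARRDC3 had 168 to 269 counts per library and ARRDC3-AS1 14 to 22, which limits what can be detected for these genes.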
